A study of Mus musculus with 12 samples.

Results

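The genes described here encode the proteins that fold, modify and crosslink type I collagen: the chaperone Serpinh1, the prolyl 3-hydroxylation complex Crtap, P3h1 and Ppib, the chaperone Fkbp10, the lysyl hydroxylases Plod1 and Plod2, the prolyl 4-hydroxylase subunits P4ha1 and P4hb, and the lysyl oxidase Lox. The 10 genes were chosen by name for these roles, with earlier results of these data known. They come from 23715 genes measured, and all 10 were among the 13059 genes tested. RNA of the skull vault (calvaria) of 12 C57BL/6 mice, 3 in each of 4 groups, was sequenced 1 mouse at a time. The labels call the mice newborn, and the study's methods give parietal bone at postnatal day 2. In the first cross, control mice (P-Ctrl, labelled WT, and Med23 fl/fl in the study's naming) were compared with Med23MSC-/- littermates (P-KO), in which Prx1-Cre deletes the floxed exons of Med23, a subunit of the Mediator complex that links transcription factors to RNA polymerase II. Prx1-Cre acts in early limb and part of the skull mesenchyme, so cells of the bone with another origin, such as blood cells, may keep an intact Med23. Which cells lost it was not measured here. In the second cross, WT mice (R-WT) were compared with Runx2+/- mice (R-Het), which carry 1 inactive allele in every cell of Runx2, the master transcription factor of osteoblasts. The question for both was how transcript levels in the mutant bone differ from those in its littermates.

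Type I collagen, the main protein of bone, is made as a long procollagen whose chains must be hydroxylated on proline and lysine before and while they wind into a helix inside the endoplasmic reticulum. Prolyl 4-hydroxylation makes the helix stable at body temperature, the 3-hydroxylation complex and the chaperones keep the chains from winding wrongly, and lysyl hydroxylation and lysyl oxidase prepare the crosslinks that tie the finished molecules into a fibril outside the cell. Most of these genes, when mutated, cause osteogenesis imperfecta or a related brittle bone disorder.

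Values are FPKM, the fragments of a transcript divided by its length and by the size of the library, summed over the transcripts of a gene, so that levels of different genes can be compared per length. A fold change is the limma estimate on log2(FPKM + 1), and a gene is called changed at a Benjamini-Hochberg adjusted p under 0.05 over all tested genes. Each mouse rested on roughly 7860000 to 11900000 fragments, and no member on fewer than 1010 of them in any mouse, which puts the counting error at 3.15% of a value or less. With 3 mice against 3, the spread between mice and not the depth set the precision. Osteoblast markers summed to 12013.2 FPKM or more in every mouse, while 4 of 6 epidermis markers were under 1 FPKM in all 12. Skeletal muscle RNA varied between libraries: the summed markers ranged from 21.1 to 1384.6 FPKM in P-Ctrl, from 599 to 4181.6 in P-KO, from 1913.5 to 5644.4 in R-WT and from 25.5 to 191 in R-Het. In R-Het, 9 of the 10 muscle markers were called lower, and 2 to 8 of them when 1 mouse was left out (2 without R-WT 1 and 3 without R-WT 3). By Xist, 3 control mice were female (P-Ctrl 2 and 3 and R-WT 1) and every mutant was male, so sex and genotype cannot be fully told apart. Med23, measured over whole transcripts and not over the deleted exons, was at 4.54 to 5.99 FPKM in P-Ctrl and 4.89 to 5.74 in P-KO. Runx2 was at 27.3 to 37.7 FPKM in R-WT and 30.4 to 35.7 in R-Het. Neither level separates the genotypes in these libraries.

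Of the 10 genes, 1 was called in Med23MSC-/- mice, and it was Lox, which rose 1.5-fold. The share of all tested genes called there was 1.57%, with 1.01% called higher and 0.559% lower. Of the same genes limma called 0 in Runx2+/- mice, where 1.89% of tested genes were called, 0.398% higher and 1.49% lower. At an unadjusted p under 0.05 Lox alone passed in each cross, against 21.3% of tested genes in the first and 15.4% in the second. The difference between the changes in both crosses was called for 0 of 10, against 0.153% of tested genes (0.0613% higher and 0.0919% lower), and Plod2 alone passed it at an unadjusted p under 0.05, which 15.3% of tested genes did. The median log2 fold change of the members was 0.04 in Med23MSC-/- mice and 0.14 in Runx2+/- mice, beside 0.06 and 0.02 over all tested genes, and the first of these became -0.067 when all mice were rescaled to the same FPKM sum.

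**Figure D1:**
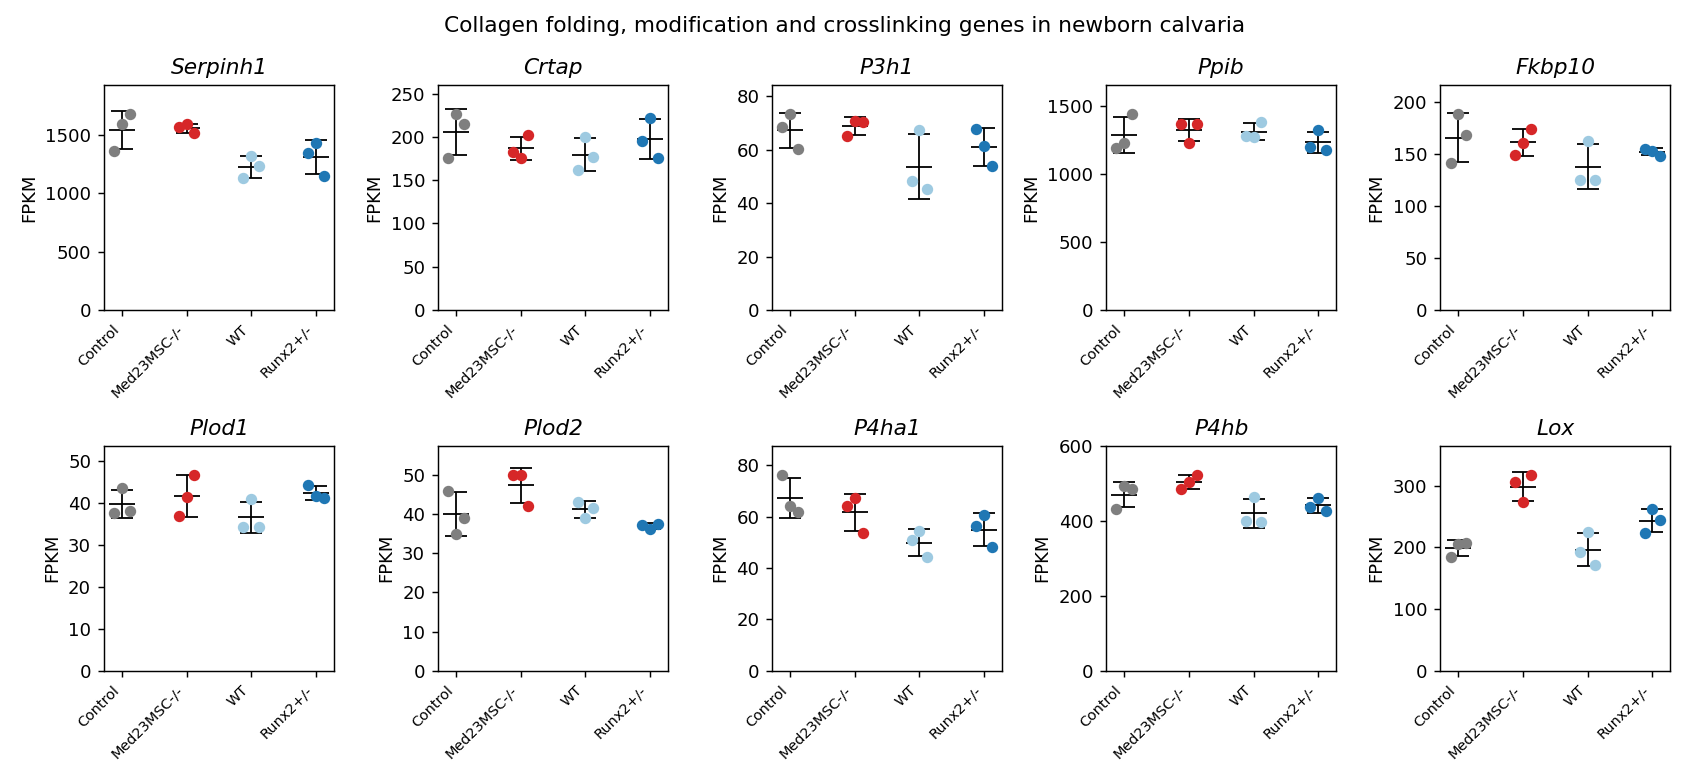
FPKM of each of the 10 genes by mouse. Each point is 1 mouse, and the lines give the mean ± SD of the 3 mice in control (P-Ctrl), Med23MSC-/- (P-KO), WT (R-WT) and Runx2+/- (R-Het) groups. The 3 Med23MSC-/- mice stand above all others for Lox (272.8 to 317.1 FPKM against 171.2 to 261.5).

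The genes were abundant and kept nearly the same order of levels in all groups. In P-Ctrl mice Serpinh1 (1544.4 ± 162.8 FPKM, SD, n = 3) and Ppib (1289.1 ± 132.1) stood highest, above 99.0% or more of the tested genes, and P4hb was the third at 471.4 ± 32.6. Crtap (206.0 ± 26.3), Lox (198.5 ± 12.8) and Fkbp10 (165.5 ± 23.6) followed. P4ha1 (67.4 ± 7.76) and P3h1 (67.4 ± 6.57) came next, and Plod2 (40.1 ± 5.52) and Plod1 (39.8 ± 3.33) were lowest. Neighbours whose mice overlapped in P-Ctrl were Serpinh1 and Ppib, Crtap and Lox, Lox and Fkbp10, P4ha1 and P3h1, and Plod2 and Plod1. P4hb was the third in each of the 4 groups. Lox was the fifth in P-Ctrl, where it overlapped Crtap, and the fourth in the other 3 groups. It overlapped Crtap in R-WT too, and in P-KO its lowest mouse (272.8 FPKM) stood above the highest Crtap value (202.2). Ratios of the highest to the lowest value over all 12 mice include differences between the 4 groups. Among the 10 they ran from 1.22 for Ppib to 1.85 for Lox, whose highest values were those of P-KO.

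Serpinh1 encodes Hsp47, the chaperone that binds folded procollagen in the endoplasmic reticulum, and lies at chr7:99345375-99353239 (GRCm38). It was measured at 1363.3, 1591.3 and 1678.6 FPKM in the P-Ctrl mice and at 1566.9, 1591.9 and 1517.8 in the P-KO mice. The R-WT mice had 1128.6, 1317.3 and 1233.4 FPKM and the R-Het mice 1346.2, 1431.8 and 1148.5. The groups overlapped in both crosses, with log2 fold changes of 0.02 (SE 0.11, limma adjusted p = 0.944) and 0.09 (SE 0.12, adjusted p = 0.781). The 95% interval of the fold was 0.852 to 1.20 in Med23MSC-/- mice and 0.878 to 1.29 in Runx2+/- mice. Its 3 RefSeq transcripts share 1 coding sequence, and the same one held 82.6% to 90.7% of the sum in every mouse.

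Crtap, P3h1 and Ppib form the complex that hydroxylates a proline of the collagen chain at its 3 position: P3h1 is the enzyme, Crtap its partner protein and Ppib (cyclophilin B) a prolyl isomerase. Crtap was at 176.3, 226.4 and 215.5 FPKM in P-Ctrl and at 182.9, 176.1 and 202.2 in P-KO. Crtap in the second cross was at 162.3, 200.1 and 176.6 FPKM in R-WT and at 195.0, 222.4 and 175.9 in R-Het. Both pairs of groups overlapped, and the log2 fold changes had opposite signs, -0.13 (SE 0.11, limma adjusted p = 0.543) and 0.14 (SE 0.12, adjusted p = 0.641), with a difference of -0.27 that was not called (adjusted p = 0.499). P3h1 lay between 60.3 and 73.3 FPKM in P-Ctrl, 65.0 and 70.9 in P-KO, 45.2 and 67.6 in R-WT and 53.8 and 67.9 in R-Het. The 95% interval of its fold was 0.878 to 1.19 in Med23MSC-/- mice and 0.889 to 1.48 in Runx2+/- mice. Ppib lay between 1195.2 and 1440.1 FPKM in P-Ctrl, 1230.4 and 1369.0 in P-KO, 1272.3 and 1382.5 in R-WT and 1178.0 and 1324.6 in R-Het, and its groups overlapped in both crosses. The split of P3h1 over its RefSeq transcripts was unsteady, with 1 transcript estimated at 8.46% of the sum in 1 mouse and 59.6% in another, so only the sum was compared.

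The windows of 250 bases before to 50 after the start of 7 of the 10 genes were in the RefSeq promoter table (GRCm38.p6), while Fkbp10, Plod2 and Lox had no entry. The letters TGTGGT, the core motif of RUNX proteins, were searched on both strands because the mutants of the second cross carry 1 inactive Runx2 allele. They stood in the window of 1 of the 7, Crtap, and in 16.8% of 32851 promoter windows. The stretch around them, shown because it is the single such match among these genes, lies at chr9:114390879-114390914 on the minus strand, 187 bases before the start site, with the motif in capitals.
Crtap: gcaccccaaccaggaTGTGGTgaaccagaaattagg
The hypoxia motif ACGTG was in a window of 5 of the 7 genes and in 19.6% of all windows. P3h1 had more than 1 window, and the one at chr4:119232665-119232964 held no ACGTG, so counts of genes and shares of windows are not quite alike. The endoplasmic reticulum stress element (CCAAT, 9 bases of any kind, CCACG) was in 0 of the 7 genes and in 0.119% of all windows. The ACGTG stretch before the start site, the nearer one where there are several, is printed for Serpinh1 (chr7:99353391-99353425, minus strand), Ppib (chr9:66060116-66060150, plus strand) and P4hb (chr11:120573290-120573324, minus strand), the 3 most abundant of the 10, each on the strand of its gene and with the motif in capitals, as CACGT where it stands on the other strand.
Serpinh1: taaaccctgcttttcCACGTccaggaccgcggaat
Ppib: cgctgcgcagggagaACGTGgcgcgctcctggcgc
P4hb: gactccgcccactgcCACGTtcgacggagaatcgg
P3h1 and P4ha1 were the other two with the motif. A match describes the letters of the window and says nothing of binding.

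Fkbp10 encodes FKBP65, a prolyl isomerase needed for lysyl hydroxylation of the collagen ends. Its FPKM ranged from 140.9 to 187.9 in P-Ctrl, from 148.6 to 174.2 in P-KO, from 124.9 to 162.5 in R-WT and from 148.2 to 154.6 in R-Het. Each pair of groups overlapped, with log2 fold changes of -0.03 (SE 0.12, limma adjusted p = 0.908) and 0.15 (SE 0.12, adjusted p = 0.585).

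Plod1 and Plod2 encode lysyl hydroxylases, of which Plod1 acts on lysines within the helix and Plod2 on those in the ends of the chain that form the crosslinks. Plod1 was at 37.7, 43.6 and 38.0 FPKM in P-Ctrl and at 36.8, 41.5 and 46.7 in P-KO, with overlapping groups. Its level in the second cross was 34.3, 40.9 and 34.4 FPKM in R-WT and 44.2, 41.7 and 41.2 in R-Het. All 3 Runx2+/- mice were thus above the 3 WT mice, by a narrow gap to the WT mouse with 40.9 FPKM, and the log2 fold change of 0.21 (SE 0.09) was not called (limma adjusted p = 0.336). Plod2 was at 46.0, 35.1 and 39.1 FPKM in P-Ctrl and at 50.01, 50.05 and 42.1 in P-KO. The Med23MSC-/- mice overlapped the control mouse with 46.0 FPKM, and the log2 fold change of 0.24 (SE 0.12) was not called (limma adjusted p = 0.301). Plod2 was at 43.2, 39.0 and 41.5 FPKM in R-WT and at 37.3, 36.2 and 37.6 in R-Het. Here all 3 mutant mice were below the 3 WT mice, by 0.15 on the log2 scale (log2 fold change -0.15, SE 0.08), which limma did not call (adjusted p = 0.410). In the second cross Plod1 and Plod2 were the only members whose groups did not overlap, and in the first Lox was. Over all tested genes, groups did not overlap with the mutant higher in 10.7% and with it lower in 10.4% in the second cross, and in 19.6% and 7.68% in the first. The change of Plod2 differed between the crosses by 0.39 on the log2 scale (95% interval 0.08 to 0.71), which limma's interaction contrast did not call (adjusted p = 0.221).

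Plod2 was measured as 2 RefSeq transcripts that differ by 1 coding exon of 63 bases, the exon 14 of 20, at chr9:92601985-92602047 on the plus strand. The longer form is known as LH2b, the one linked to hydroxylation of the collagen ends. The exon, read from the GENCODE M21 transcript on GRCm38 and printed because it is what tells the forms apart, is in capitals between 20 bases of its neighbouring exons on each side.
Plod2: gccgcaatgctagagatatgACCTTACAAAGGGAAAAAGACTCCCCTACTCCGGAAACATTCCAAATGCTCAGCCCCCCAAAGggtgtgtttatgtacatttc
The transcript with this exon held 78.6% to 91.7% of the Plod2 sum in P-Ctrl and 71.5% to 86.8% in P-KO. It held 83.7% to 96.4% in R-WT and 81.5% to 95.1% in R-Het. The longer form was therefore the main one in every mouse, and its share overlapped between mutant and control mice in both crosses. The split is an estimate made by the program from reads that both transcripts mostly share.

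P4ha1 and P4hb encode the catalytic and the partner subunit of prolyl 4-hydroxylase, and P4hb is also protein disulfide isomerase. P4ha1 was at 76.2, 64.3 and 61.6 FPKM in P-Ctrl and at 64.1, 67.3 and 53.7 in P-KO, and at 51.1, 54.3 and 44.1 in R-WT and 56.1, 60.6 and 48.0 in R-Het. The groups overlapped, with log2 fold changes of -0.13 (SE 0.12, limma adjusted p = 0.584) and 0.14 (SE 0.12, adjusted p = 0.634). P4hb ranged from 433.9 to 493.0 FPKM in P-Ctrl, from 486.1 to 523.6 in P-KO, from 398.3 to 464.9 in R-WT and from 426.0 to 463.4 in R-Het. Its fold had the 95% intervals 0.930 to 1.24 in Med23MSC-/- mice and 0.900 to 1.23 in Runx2+/- mice.

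Lox encodes lysyl oxidase, the secreted enzyme that oxidises lysine and hydroxylysine so that collagen and elastin molecules can be crosslinked. In the P-Ctrl mice it was at 183.7, 205.5 and 206.2 FPKM, and in the P-KO mice at 305.2, 272.8 and 317.1. All 3 Med23MSC-/- mice were higher than all 3 controls, and Lox rose by 0.58 on the log2 scale (SE 0.09, fold 1.5, 95% interval 1.29 to 1.75, limma adjusted p = 0.0388). In the second cross it was at 192.9, 224.0 and 171.2 FPKM in R-WT and at 223.8, 261.5 and 243.7 in R-Het. The lowest Runx2+/- mouse lay just under the highest WT mouse, and the log2 fold change of 0.31 (SE 0.12, fold 1.24, 95% interval 1.03 to 1.502) was not called (limma adjusted p = 0.253). The difference between both changes was 0.27 (95% interval -0.06 to 0.60, limma adjusted p = 0.432), so Lox is not shown to change more in one cross than in the other.

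The call on Lox in Med23MSC-/- mice stood close to the threshold. Leaving out any 1 of the 6 mice cut the calls over all tested genes from 205 to between 0 and 35. A call lost in this way is thus not particular to Lox, nor to Loxl4, Col2a1 and Bglap below. Lox then had log2 fold changes of 0.53 to 0.65 and adjusted p of 0.0604 to 0.154 in limma. Under the other settings it was called in 5 of 12. With the 2 female controls left out, the log2 fold change was 0.69 (adjusted p = 0.148). In bulk bone, more Lox RNA per cell and more cells that express Lox cannot be told apart.

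**Figure D2:**
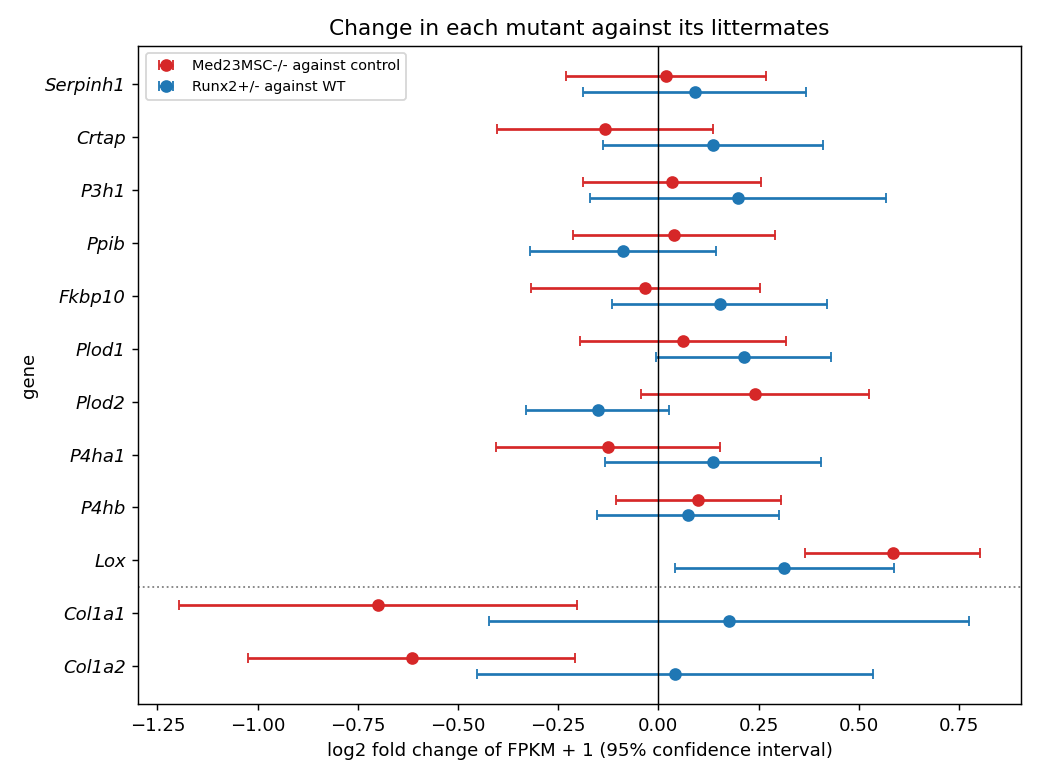
Log2 fold change of FPKM + 1 for the 10 genes and, under the dotted line, the type I collagen chains, in Med23MSC-/- against control mice and in Runx2+/- against WT mice. Points are limma estimates from 3 mice against 3 and bars their 95% intervals. Lox in Med23MSC-/- mice (0.58) is the single called value, and the intervals of Col1a1 and Col1a2 lie below 0 in that cross.

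For the 9 members other than Lox, the 95% intervals of the fold lay within 0.755 to 1.44 in Med23MSC-/- mice and within 0.795 to 1.48 in Runx2+/- mice. These intervals give the range of changes compatible with the values of 3 mice a group, and are not a limit of detection. The collagen chains Col1a1 and Col1a2, with folds of 0.615 and 0.653 in Med23MSC-/- mice, were not called either. The sign of the small log2 fold changes of Serpinh1, P3h1, Ppib, Plod1 and P4hb in Med23MSC-/- mice turned with the scaling between mice, so no direction is given for them. The summed FPKM of the 10 genes was 3721.7 to 4394.4 in P-Ctrl and 4165.4 to 4316.9 in P-KO, and 3465.8 to 3842.9 in R-WT and 3500.9 to 4056.4 in R-Het, overlapping in both crosses. Serpinh1 and Ppib make up most of that sum. The mean log2 level of the 10 genes, in which each counts the same, was 7.477 to 7.583 in P-Ctrl and 7.595 to 7.640 in P-KO, which did not overlap, and 7.280 to 7.496 in R-WT and 7.379 to 7.536 in R-Het, which did. This mean is given without a test and, unlike a ratio within a mouse, depends on the scaling between mice. It includes Lox, whose log2 fold change in Med23MSC-/- mice was 0.58. Those of the other 9 ran from -0.13 to 0.24 there, so the separation of the mean does not show a rise of these 9. Of all tested genes 19.6% were higher without overlap in that cross.

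The genes were set against their client, the chains of type I collagen, within each mouse, since such a ratio does not depend on the scaling between libraries. Col1a1 was at 5692.4, 9192.6 and 6875.9 FPKM in P-Ctrl and at 4267.0, 5351.2 and 3668.9 in P-KO. Col1a2 was at 6843.2, 10212.7 and 9209.3 FPKM in P-Ctrl and at 5762.4, 6164.9 and 5038.8 in P-KO. All mutant mice were below all controls for both chains, by -0.70 (SE 0.21) for Col1a1 and -0.62 (SE 0.17) for Col1a2 on the log2 scale, and neither was called (limma adjusted p = 0.129 and 0.115). In the second cross the log2 fold changes were 0.18 (SE 0.26) and 0.04 (SE 0.21), with overlapping groups.

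Relative to Col1a1, 9 of the 10 genes were higher in every Med23MSC-/- mouse than in every control mouse, and P4ha1 overlapped. The mean log2 ratio was higher by 0.57 (Crtap) to 1.29 (Lox). For Serpinh1 the ratio to Col1a1 was 24.0%, 17.3% and 24.4% in P-Ctrl and 36.7%, 29.7% and 41.4% in P-KO. For Lox it was 3.23%, 2.24% and 2.999% in P-Ctrl and 7.15%, 5.10% and 8.64% in P-KO. The 10 ratios share the denominator, and 60.9% of all tested genes also had a higher ratio to Col1a1 without overlap. The count is therefore not particular to the members. Col1a1 itself had a log2 fold change of -0.70 in Med23MSC-/- mice, and the median of the members was 0.04. None of the 10 ratios (0 of 10) separated the groups in Runx2+/- mice, where 0.574% of tested genes had a higher and 3.09% a lower ratio without overlap. With Col1a2 in place of Col1a1 the counts were again 9 of 10 and 0 of 10, against 62.9% and 2.76% of tested genes higher. Col1a2 was lower in the same Med23MSC-/- mice, so this is not an independent repeat.

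**Figure D3:**
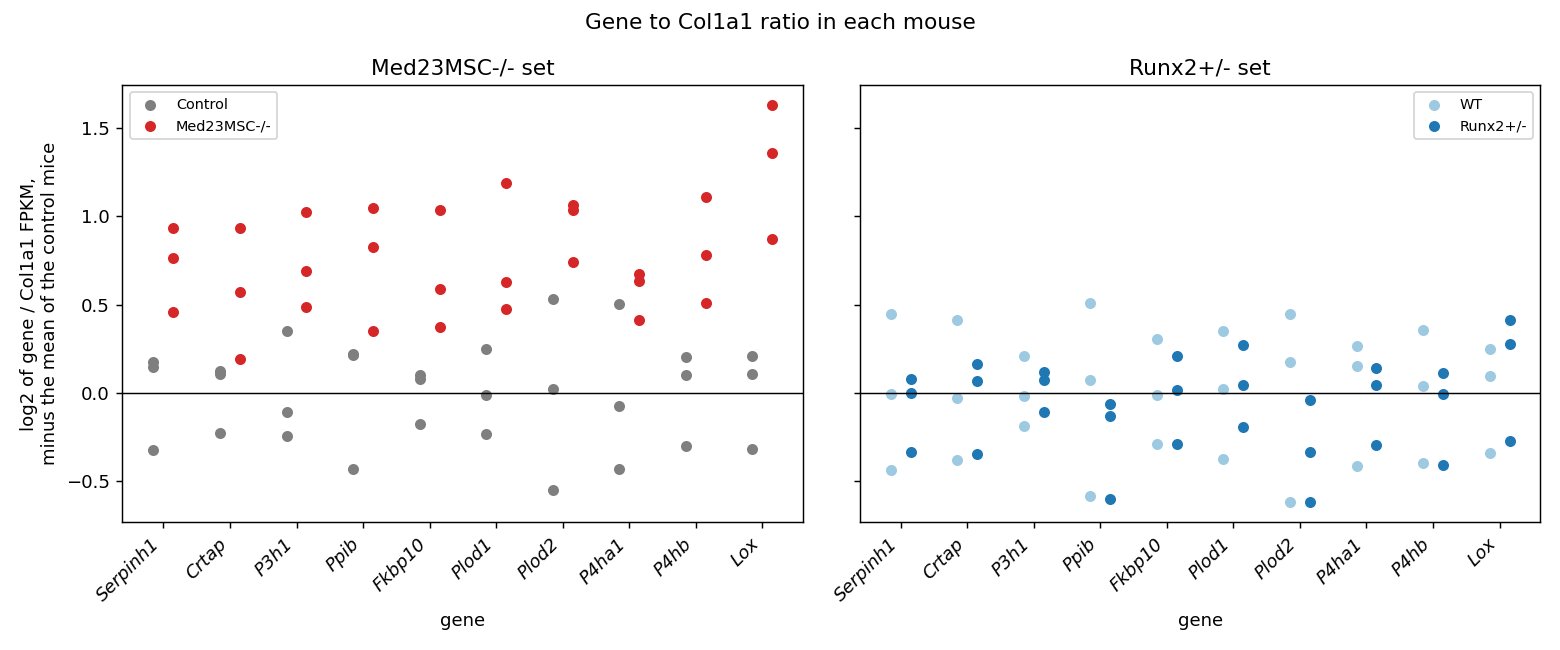
Log2 ratio of each gene to Col1a1 in each mouse, minus the mean of the control mice of that cross. Each point is 1 mouse. In the Med23MSC-/- set 9 of 10 genes lie above every control mouse and P4ha1 overlaps, while in the Runx2+/- set all 10 overlap.

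Within the lysyl oxidase family, Lox took a larger share in Med23MSC-/- mice. This and the other family shares were computed after the values of the members were seen, and are given without a test. The shares of a family make up a fixed total, so a higher share of 1 gene lowers those of others. How often such shares separate among other genes was not computed. Lox held 55.4%, 52.3% and 57.7% of the summed FPKM of Lox and Loxl1 to Loxl4 in P-Ctrl and 68.0%, 64.5% and 66.8% in P-KO. Among Runx2+/- mice and their littermates it held 56.5%, 55.5% and 56.3% in R-WT and 58.1%, 60.1% and 58.6% in R-Het. The shares did not overlap in either cross, with a mean difference of 11.3 percentage points in the first and 2.87 in the second. The shares of Loxl1 and Loxl3 did not overlap in either cross, and were lower in the mutants. Loxl1 held 20.4% ± 1.40 (SD, n = 3) in P-Ctrl and 13.5% ± 0.531 in P-KO. Loxl4, a further member of the family, was called lower in Med23MSC-/- mice, with 13.1 to 13.9 FPKM in P-Ctrl and 6.53 to 8.53 in P-KO (log2 fold change -0.77, SE 0.11, limma adjusted p = 0.0308), and lost the call when any 1 of the 6 mice was left out (adjusted p 0.0551 to 0.109). Lox and Loxl4 thus passed the test in opposite directions within 1 enzyme family.

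**Figure D4:**
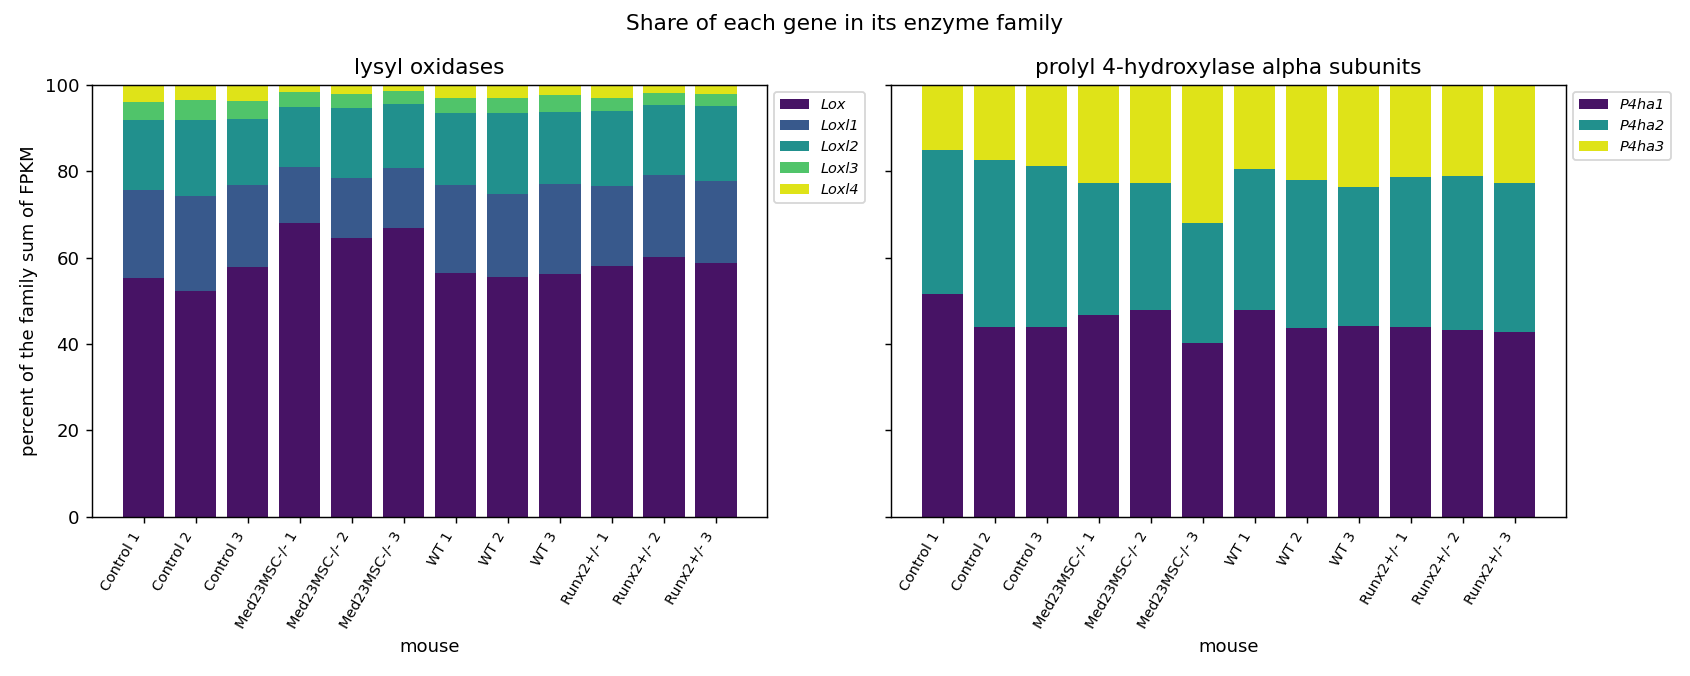
Share of each gene in the summed FPKM of the lysyl oxidases (left) and of the prolyl 4-hydroxylase alpha subunits (right). Each bar is 1 mouse and adds up to 100 percent. The Lox segment is largest in the 3 Med23MSC-/- mice (64.5% to 68.0%), and the P4ha2 segment is smallest there (27.9% to 30.4%).

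The alpha subunits of prolyl 4-hydroxylase also differed in their shares. P4ha1 held 44.0% to 51.6% of the sum of P4ha1, P4ha2 and P4ha3 in P-Ctrl and 40.2% to 47.8% in P-KO, which overlapped. P4ha2 held 36.4% ± 2.63 in P-Ctrl and 29.2% ± 1.29 in P-KO, and P4ha3 held 17.1% ± 1.90 and 25.8% ± 5.28, both without overlap. P4ha2 in the second cross held 33.0% ± 0.979 in R-WT and 35.0% ± 0.621 in R-Het, higher in the mutants without overlap, and the shares of P4ha3 overlapped (21.7% ± 2.02 and 21.7% ± 0.869). The level of P4ha2 itself had a log2 fold change of -0.38 (SE 0.09, limma adjusted p = 0.0766). The prolyl 3-hydroxylase family was made of P3h1 to P3h4 and Crtap. In it the share of Crtap was 46.0%, 46.0% and 46.6% in P-Ctrl and 41.2%, 41.1% and 40.7% in P-KO, without overlap. The level of Crtap itself overlapped and was not called (log2 fold change -0.13, limma adjusted p = 0.543). P3h4, a relative of Crtap without the enzyme domain, held 20.7% ± 1.53 and 24.6% ± 0.546. The shares of Crtap overlapped in Runx2+/- mice (46.7% to 48.1% and 45.1% to 47.3%). Among the lysyl hydroxylases, Plod1 held 34.1% ± 2.47 in R-WT and 38.4% ± 0.282 in R-Het, and Plod2 held 38.6% ± 2.95 and 33.5% ± 1.11, each without overlap.

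The remaining genes of the pathway were described from lists written from general knowledge, with earlier results of these data known. Of 7 tested other collagen hydroxylases and glycosyltransferases, limma called 0 in either cross, and at an unadjusted p under 0.05 there were 1 higher and 1 lower in Med23MSC-/- mice and 2 higher in Runx2+/- mice. The smallest p was that of P4ha2 in the first cross and in the second that of P3h3, a prolyl 3-hydroxylase (log2 fold change 0.29, limma adjusted p = 0.248). Of the 4 other lysyl oxidases, 1 was called lower in Med23MSC-/- mice (Loxl4) and 0 in Runx2+/- mice, where 0 also passed at an unadjusted p under 0.05 and Loxl2 came closest (0.21, limma adjusted p = 0.535). Of 7 procollagen propeptidases and enhancers, which trim the ends of procollagen, 0 were called. In Med23MSC-/- mice 3 were lower at an unadjusted p under 0.05, led by Pcolce, the enhancer of the C-terminal cut (-0.42, limma adjusted p = 0.0697). In Runx2+/- mice 2 were higher, led by Adamts2, which removes the N-terminal end (0.43, limma adjusted p = 0.163). Of 14 procollagen export and other brittle bone genes 0 were called, and at an unadjusted p under 0.05 there were 3 higher and 1 lower in the first cross and 2 higher and 1 lower in the second. The lower genes were Sparc, a collagen-binding matrix protein (-0.44, limma adjusted p = 0.099), in Med23MSC-/- mice and Tmem38b, a potassium channel of the endoplasmic reticulum (-0.43, limma adjusted p = 0.112), in Runx2+/- mice.

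Fibrillar collagens other than type I, which pass through the same enzymes, were lower in Med23MSC-/- mice in 1 case. Of the 7 other fibrillar collagen chains, 1 was called lower and 4 were lower at an unadjusted p under 0.05, and all 7 log2 fold changes were negative, with a median of -0.34. The called gene was Col2a1, the chain of cartilage collagen (-0.86, SE 0.14, limma adjusted p = 0.0404), at 11.7 to 15.3 FPKM in P-Ctrl and 5.59 to 7.56 in P-KO, and leaving out any 1 mouse ended the call (adjusted p 0.0722 to 0.133). In Runx2+/- mice 0 of the 7 were called and 0 passed at an unadjusted p under 0.05, with a median of 0.17. The 15 general endoplasmic reticulum chaperones held 0 called genes in either cross. In Med23MSC-/- mice 3 were higher at an unadjusted p under 0.05, led by Hsp90b1 (0.29, limma adjusted p = 0.122), and the median was 0.12. In Runx2+/- mice 0 passed that level, Dnajb11 had the smallest p (0.14, limma adjusted p = 0.584) and the median was 0.06. Of 11 tested hypoxia response genes, given because ACGTG is their motif, 0 were called. In Med23MSC-/- mice 4 were higher and 2 lower at an unadjusted p under 0.05, led by Egln3, an oxygen-sensing prolyl hydroxylase (0.61, limma adjusted p = 0.0771), and in Runx2+/- mice 1 was lower, the glycolysis gene Pgk1 (-0.30, limma adjusted p = 0.280).

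**Figure D5:**
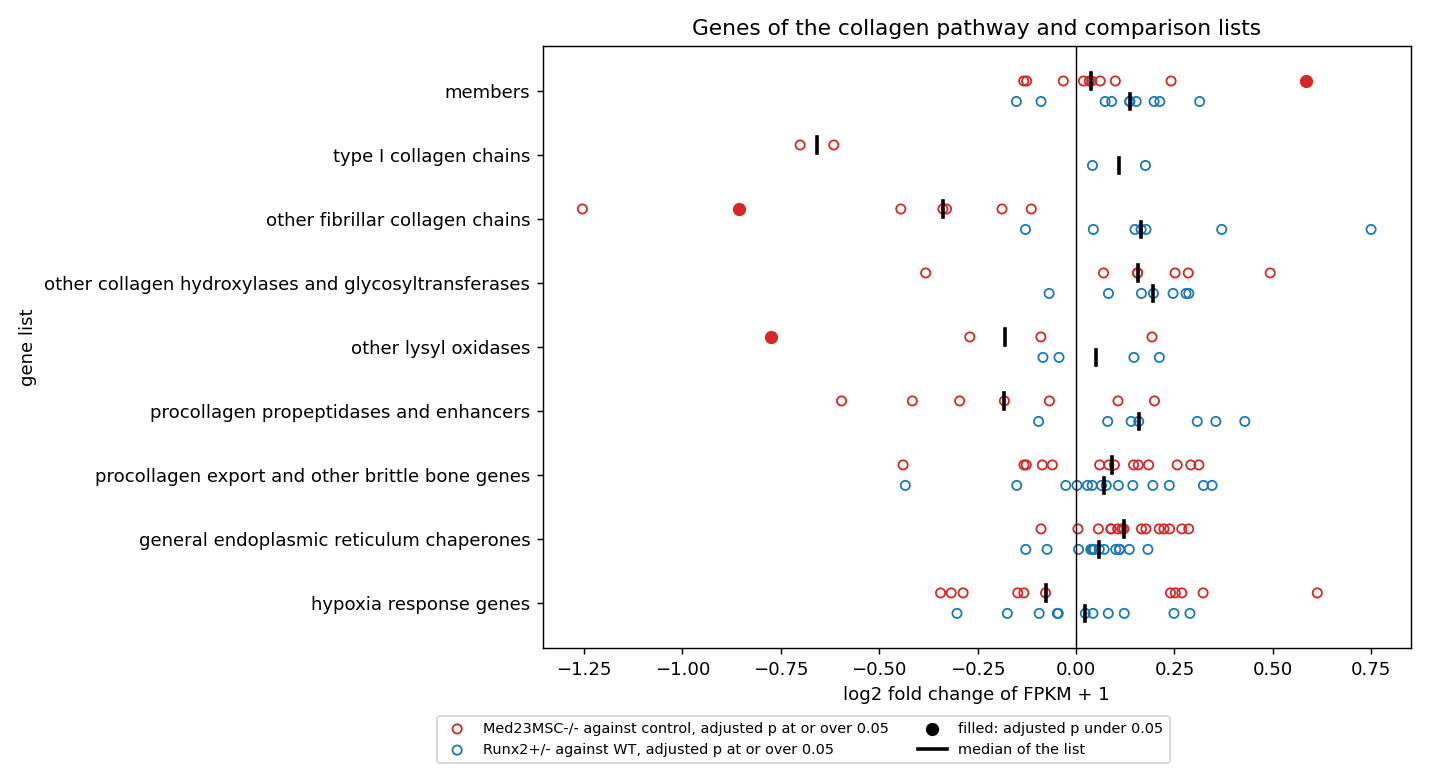
Log2 fold change of FPKM + 1 of every tested gene in the members and 8 related lists, in Med23MSC-/- against control mice (red) and Runx2+/- against WT mice (blue). Each circle is 1 gene, filled where the limma adjusted p is under 0.05, and the black bar is the median of the list. Lox is the filled circle among the members, and Col2a1 and Loxl4 are those below 0.

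Markers of the cells that make collagen stood at different levels in mutant and control bones. The summed osteoblast markers were 24973.7 to 30117.9 FPKM in P-Ctrl and 12013.2 to 17893.4 in P-KO, and 24779.2 to 29223.6 in R-WT and 15383.9 to 20453.7 in R-Het, lower without overlap in both mutants. These sums rest on a few abundant genes chosen here after their values were seen: in the second cross Spp1 (osteopontin) alone was at 17845.1 ± 2415.4 FPKM (SD, n = 3) in R-WT and 10490.6 ± 1467.9 in R-Het, while 4 of the 10 markers had positive log2 fold changes there. In the first cross all 10 were negative. Runx2 was at 30.5 to 38.0 FPKM in P-Ctrl and 23.7 to 28.7 in P-KO, without overlap, and was not called (-0.40, SE 0.12, limma adjusted p = 0.127). In Med23MSC-/- mice 1 of 10 osteoblast markers was called lower, Bglap (osteocalcin; -1.95 on the log2 scale, limma adjusted p = 0.0401), a call lost without any 1 of the 6 mice (adjusted p 0.0595 to 0.13). Of the same 10, limma called 0 in Runx2+/- mice, and 1 was higher and 2 lower at an unadjusted p under 0.05, led by Ibsp, a bone matrix protein (-0.81, limma adjusted p = 0.0551). Fibroblast and suture mesenchyme markers summed to 1515.7 to 1922.2 FPKM in P-Ctrl and 1645.0 to 1895.7 in P-KO, which overlapped, as they did in the second cross (1634.1 to 1877.4 in R-WT and 1538.9 to 2053.9 in R-Het). Of the 9, limma called 0 in either cross. At an unadjusted p under 0.05 there were 4 higher and 1 lower in Med23MSC-/- mice and 4 higher in Runx2+/- mice, and the transcription factor Prrx1 had the smallest p in both (0.31 and 0.49, limma adjusted p = 0.110 and 0.05004). The part of the cell makeup, the muscle RNA and the sex of the mice in the Lox result was not tested.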

How the data were processed

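RNA of 12 calvariae was sequenced by the authors, who deposited 1 value per RefSeq transcript and mouse. The deposited values were taken as FPKM: they are not whole numbers, scale with transcript length and sum to 891328.5 to 1068933.1 per mouse. The submitters' processing notes name Bowtie 0.12.8 and mm10, and the program that estimated the values is not given in the sources used here. Estimates split over transcripts depend on that program, so transcripts were summed per gene symbol. Of 30411 transcripts, 29835 matched the RefSeq table of GRCm38, 180 matched GENCODE M21 and 396 kept their identifier.

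A gene entered the tests if 3 or more of the 12 mice reached 1 FPKM, and log2(FPKM + 1) was used, which understates changes of low genes. Each mutant group was compared with its littermates in a separate fit of 6 mice with limma 3.58.1 (R 4.3.3, mean-variance trend, no covariates, Benjamini-Hochberg adjustment), and the difference by an interaction contrast over 12 mice. The fit was tested on simulated data with independent noise per gene and added log2 changes of 1 or 2 in size. Smaller changes, such as that of Lox, and shifts shared between genes were not simulated. An exact permutation test of 3 mice against 3 cannot go below p = 0.1. Replicate numbers of the labels were not taken as pairs. No batch is named in the labels, and p-values measure the spread between these mice. Depth was derived from what 1 fragment is worth in long single-transcript genes (2 kb or more), and the counting error given leaves out every other source. Tables and plots used pandas 2.3.3, matplotlib 3.10.9 and numpy 2.4.6 under Python 3.11.15.

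The members and all gene lists were chosen with earlier results of these data known. The genes named are the 10 members, Col1a1, Col1a2, Med23, Runx2, the called genes of each list or otherwise the one with the smallest p, and the 5 genes most alike. Family shares were added, and Loxl1, Loxl3, P4ha3, P3h4 and Spp1 named, after values were seen. Protein sequences were not analysed here. Alternatives changed the pseudocount (0.1, 0.01), the low-value filter (none, 5 FPKM), the scaling, the variance model, the mice in the fit and a replicate block.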

Additional observations from a re-analysis of the deposited data

How the results depend on the processing

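The count of called members in Med23MSC-/- mice was 1 (Lox) with both other pseudocounts, the filter at 5 FPKM, all 12 mice in 1 fit and the replicate block. It was 0 without a filter, with each of the 3 rescalings, in the ordinary linear model, without the mean-variance trend, without female controls and without any 1 replicate (0 to 0). The cause was not tested. Lox itself had log2 fold changes of 0.47 to 0.69 and adjusted p of 0.0157 to 0.154 in limma over 18 alternatives, the higher level in mutants holding in each. In Runx2+/- mice and for the difference the count was 0 throughout.

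The FPKM sums differed between mice. Rescaling to the same sum, by the median ratio, or to the same sum without muscle and globin genes moved the median of all tested genes in Med23MSC-/- mice by -0.091, -0.065 and -0.098, and the genes called from 132 higher and 73 lower to 42 and 65, 57 and 86, and 40 and 68. The median of the members became -0.067 at the same sum and -0.076 without muscle and globin genes, 0.14 without female controls (1 control mouse left, assumed to vary like the others), and 0.0066 to 0.080 without 1 replicate. In Runx2+/- mice it was 0.056 to 0.21 without 1 replicate.

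Log2 fold changes in Med23MSC-/- mice that turned sign under the 3 rescalings, in that order, were those of Serpinh1 (-0.086, -0.056, -0.095), P3h1 (-0.069, -0.040, -0.078), Ppib (-0.065, -0.035, -0.073), Plod1 (-0.041, -0.012, -0.049) and Med23 (-0.087, -0.062, -0.094), and of P4hb at the same sum with and without muscle and globin genes (-0.0043, -0.013). Without female controls Crtap was at 0.083, Fkbp10 at 0.19 and Med23 at -0.15. In the difference, Ppib turned at the same sum with and without muscle and globin genes (-0.012, -0.0037), P4hb under the 3 rescalings (-0.11, -0.033, -0.11), and Serpinh1 (0.16), Crtap (0.016) and Fkbp10 (0.097) without female controls. None of these was called in any setting.

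Leaving out 1 replicate at a time turned the sign of further log2 fold changes, whose ranges in Med23MSC-/- mice were -0.069 to 0.082 for Serpinh1, -0.042 to 0.096 for P3h1, -0.012 to 0.12 for Ppib, -0.14 to 0.064 for Fkbp10, -0.022 to 0.15 for Plod1 and -0.090 to 0.078 for Med23. In Runx2+/- mice they were -0.041 to 0.45 for Col1a1, -0.12 to 0.23 for Col1a2, -0.011 to 0.12 for Med23 and -0.0032 to 0.22 for Runx2, and for the difference -0.047 to 0.064 for P4hb.

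Numbers shared by replicates were not taken as pairs, since the labels do not name any. Same-numbered deviations correlated at 0.18, 0.259 and 0.0527 in the first cross and at 0.00482, -0.0474 and -0.0836 in the second. With the number as a replicate block 273 genes were called in Med23MSC-/- mice and 90 in Runx2+/- mice, against 205 and 247, and 136 against 20 for the difference. In the first cross each mutant mouse correlated best with the control of its own number, and in the second none did. Whether the numbers mark pairs in the first cross is therefore not settled. Under the block Lox had an adjusted p of 0.0487 and Col1a1 one of 0.0472 in limma.

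Other counts of called genes in Med23MSC-/- mice, Runx2+/- mice and the difference were 1, 5 and 6 without a filter, 287, 210 and 43 at 5 FPKM and 89, 183 and 14 without the trend. With 12 mice in 1 fit they were 717 and 95. With 3 mice a group, a gene that was not called is not shown to be unchanged, and the intervals given are not a limit of detection. Of 1460 gene values under alternatives 1290 kept their direction and side of the threshold, 110 lost and 15 gained the call, and 45 turned sign.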

Other observations

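The genes whose levels across the 12 mice were most like the mean log2 level of the 10 members, out of 13049 other tested genes, were Gpc4, a cell-surface proteoglycan (Pearson r = 0.927, Spearman rho = 0.986), Tedc1 (r = 0.921, rho = 0.930), Mvd, an enzyme of cholesterol synthesis (r = 0.918, rho = 0.923), Cnpy3, a chaperone of the endoplasmic reticulum (r = 0.907, rho = 0.790), and Pdia5, a protein disulfide isomerase (r = 0.898, rho = 0.923). Without the 2 mice farthest from the median, r was 0.905, 0.942, 0.851, 0.815 and 0.932. These are descriptions of genes picked as the highest of 13049 and carry no p, and the 12 mice include 4 genotypes whose libraries differ in cell makeup.

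Other cell type markers gave these counts. Of 8 cartilage markers, limma called 0 in either cross, with 1 higher and 4 lower in Med23MSC-/- mice and 3 higher in Runx2+/- mice at an unadjusted p under 0.05. Hapln1, a link protein of cartilage matrix, had the smallest p in Med23MSC-/- mice (log2 fold change 0.73, limma adjusted p = 0.0816), and Acan, the main cartilage proteoglycan, in Runx2+/- mice (0.52, limma adjusted p = 0.0798). Of 10 muscle markers in Med23MSC-/- mice 0 were called and 3 were higher at an unadjusted p under 0.05. Of 5 tested neural markers 0 were called, with 2 higher in the first cross and 1 higher in the second at that level. Of 3 tested erythroid markers 0 were called, with 1 and 3 lower at that level, and of 4 tested myeloid and osteoclast markers 0 were called, with 0 and 3 lower. The 1 epidermis marker tested, Krt10, was not called in either cross and did not pass at an unadjusted p under 0.05.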
